A study of Homo sapiens with 36 samples.

Results

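H3255 is a human non-small cell lung cancer line that carries EGFR with the L858R change, per the labels. The 3 H3255 libraries treated with MinE07, an aptamer made of RNA (a nucleic acid whose fold lets it bind a protein target) and directed at EGFR, were compared here with the 3 H3255 libraries treated with an extended version of C36, the control aptamer. These are 6 of the 36 libraries of the series, which covers 4 lung cancer lines, 3 treatments and 3 libraries per group. The 3 vehicle libraries of H3255 (DPBS with magnesium, no aptamer) are shown beside them. All H3255 cells were given their aptamer at 3 µM, or vehicle, for 24 h in RPMI with 1% serum, and the libraries come from separate biological experiments per the series record. RNA was read by poly-A sequencing, and the deposited values are FPKM, a number of fragments per gene corrected for gene length and sequencing depth. Of 66366 genes in the files, the 13433 with a mean of at least 1 FPKM over the 6 libraries were described. The lines used for contrast were H1975 (EGFR L858R with T790M), H820 (EGFR Ex19del with T790M) and A549 (WT EGFR, treated in DMEM), with 3 MinE07 and 3 C36 libraries each. H3255 stands for 1 line and so for its genotype and its background at once.

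EGFR is a receptor tyrosine kinase of the cell surface. In lung adenocarcinoma, mutations such as L858R leave its kinase active without a ligand, and the cells come to depend on the signals it sends through the MAP kinase and PI3K-AKT pathways. Besides driving division, these pathways are known to act on glucose uptake and glycolysis, on protein and lipid synthesis, on the actin skeleton, adhesion and secreted factors, and on FOXO transcription factors, which AKT keeps out of the nucleus. The description below follows these functions through 37 gene lists and leaves MAP kinase output, interferon, cell cycle and p53 genes aside.

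Most epithelial and lung markers were abundant. EPCAM (204 to 220 FPKM), CDH1 (119 to 128 FPKM), NKX2-1 (66.2 to 90.6 FPKM) and NAPSA (153 to 188 FPKM) were present in all 9 H3255 libraries. SFTPB, the lowest of the 8 epithelial and lung markers, was at only 3.17 to 3.65 FPKM, and KRT8, the highest, at 630 to 793 FPKM. The summed level of the 8 markers was 1800 to 1871 FPKM with MinE07, 1957 to 1989 with C36 and 2055 to 2126 with vehicle. Markers of other cells were low but not all at 0. Among 4 fibroblast markers COL1A1 was at 2.56 to 3.15 FPKM and COL3A1, DCN and PDGFRB at 0.239 FPKM or less. Among 4 leukocyte markers CD68 was at 1.44 to 2.12 FPKM and PTPRC, CD3E and LYZ at 0.0675 FPKM or less, and 4 endothelial markers were at 0.275 FPKM or less. The shallowest library had 0.592 and the deepest 1.15 times the depth of the median H3255 library, and 13236 to 13432 genes exceeded 1 FPKM. Over 10702 protein-coding genes with a value above 0 in all 9 libraries, the first principal component held 62.6% of the variance and set the MinE07 libraries (14.2 to 14.5) apart from C36 (-7.25 to -6.29) and vehicle (-7.86 to -7.06). Over all 13433 genes tested the first component held 24.25% and did not follow the treatments. It set the first MinE07 library (36.5) and the first vehicle library (18.8) apart from the other 7, which lay at -17.6 to 0.476, the other MinE07 libraries included. On the second component (19.4%) the MinE07 libraries were the lowest, at -25.8, -22.95 and -2.26, the last being the first MinE07 library. The first MinE07 library and the first vehicle library also stood apart in small nuclear RNA entries, with medians 1.50 and 2.30 log2 above the other libraries of their groups (26 entries). The count of a list is also given without that MinE07 library where it differs.

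EGFR itself was at 336, 347 and 341 FPKM in the MinE07 libraries, 436, 418 and 414 in the C36 libraries and 415, 421 and 420.2 in the vehicle libraries. Every MinE07 library lay below every C36 and vehicle library. Its log2 change, MinE07 minus C36 on the log2(FPKM + 0.5) scale used throughout, was -0.31 ± 0.030 (SE) with an adjusted p of 3.13e-05 in limma. A gene is said to have risen or fallen only where this adjusted p was under 0.05. By that rule 36.8% of the genes tested were called (4945 of 13433), 16.8% higher with MinE07 and 20.0% lower. Values are relative to all RNA of a library, so fewer cells of a kind and less RNA per cell cannot be told apart. Most changes were small. The median size of a called change was 0.22 log2, and only 15 genes (0.112%) rose and 18 (0.134%) fell by at least 1 log2. Because so large a share was called, the count of each list below is to be read against these percentages, and its median log2 change against the median of all genes tested, -0.01.

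The largest rises and falls, among called genes with a mean of at least 5 FPKM, were spread over surface, secreted and metabolic functions. The 12 largest rises were led by KRT4, a keratin of stratified epithelium, and ALDH3B1, an aldehyde dehydrogenase. KRT4 was at 24.0, 25.4 and 25.7 FPKM in the MinE07 libraries, 7.43, 8.08 and 7.24 in the C36 libraries and 10.1, 10.0 and 10.3 in the vehicle libraries. All MinE07 libraries were high, the C36 libraries were the lowest, and no groups overlapped. Its log2 change was 1.66 ± 0.043 (SE), with C36 minus vehicle at -0.40. ALDH3B1 was at 10.4, 11.1 and 10.9 FPKM in the MinE07 libraries, 3.30, 3.19 and 3.39 in the C36 libraries and 3.73, 3.60 and 3.46 in the vehicle libraries, with a log2 change of 1.57 ± 0.044 (SE). The C36 and vehicle libraries of ALDH3B1 lay close together, with C36 minus vehicle at -0.11. The other rises were ICAM4 (1.12), ST6GALNAC2 (1.10), a sialyltransferase, MXD4 (1.06), a repressor that competes with MYC for MAX, SELENBP1 (1.03), a methanethiol oxidase, CYP1A1 (1.03), LFNG (1.01), a glycosyltransferase that modifies Notch, SPON2 (0.98), a secreted matrix protein, TMPRSS2 (0.98), CLU (0.95), a secreted chaperone, and SPNS2 (0.93), an exporter of sphingosine 1-phosphate.

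The 12 largest falls were led by CXCL8, a chemokine that draws neutrophils, and PLAU, the urokinase plasminogen activator. CXCL8 was at 5.07, 6.17 and 5.82 FPKM in the MinE07 libraries, 21.7, 24.9 and 24.3 in the C36 libraries and 22.2, 23.5 and 25.7 in the vehicle libraries, and its log2 change was -1.97 ± 0.079 (SE). The MinE07 libraries were far below both other groups, which overlapped each other. AREG, an EGFR ligand, was at 3.69, 3.45 and 3.22 FPKM with MinE07 against 9.17, 10.1 and 9.81 with C36, with a log2 change of -1.37 ± 0.064 (SE). The remaining falls were PLAU (-1.53), PHACTR3 (-1.37), a regulator of protein phosphatase and actin, SLC2A3 (-1.37), ITGA2 (-1.36), PLAUR (-1.28), CEMIP (-1.26), which takes part in breaking down hyaluronan, MFSD2A (-1.17), a lysophospholipid transporter, TFPI2 (-0.99), a serine protease inhibitor, F3 (-0.97), and ENG (-0.94), a TGF-beta co-receptor. The next genes outside these lists changed by 0.93 and -0.93 log2. These 24 genes were chosen for their size in this comparison, so their p-values serve as description only.

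**Figure D1:**
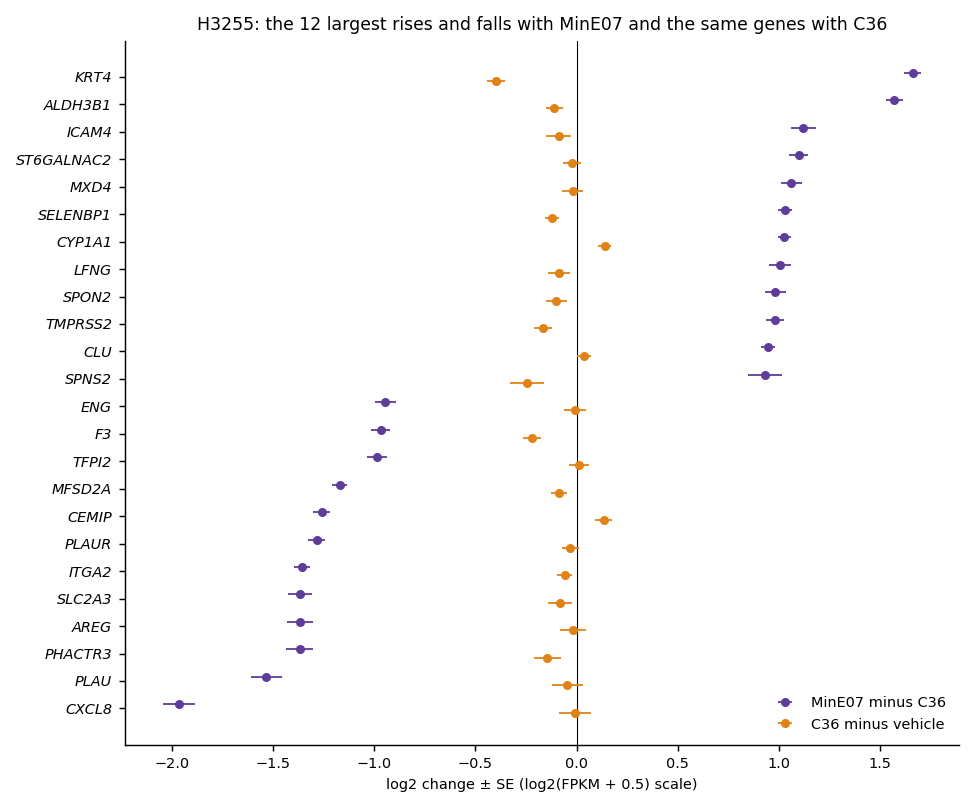
Log2 change ± SE (x axis, log2(FPKM + 0.5) scale) of the 12 largest rises and 12 largest falls in H3255, for MinE07 minus C36 (purple) and C36 minus vehicle (orange), 3 libraries per group. The purple points run from -1.97 (CXCL8) to 1.66 (KRT4), while the orange points of the same genes run from -0.40 (KRT4) to 0.14 (CYP1A1); the 2 comparisons share the C36 libraries.

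Genes of glycolysis and of the hypoxia response fell together. Glycolysis breaks glucose down to pyruvate and lactate, and most of its enzymes are also targets of the hypoxia-inducible factors. Of 22 tested members of the glycolysis and lactate transport list, 18 fell and 0 rose (16 fell without the first MinE07 library), and the median log2 change was -0.40 (-0.44 to -0.32 over the 3 MinE07 libraries). For the glucose transporter SLC2A3 the levels were 2.43, 2.53 and 2.97 FPKM in the MinE07 libraries, 7.77, 7.47 and 7.51 in the C36 libraries and 7.99, 7.74 and 8.42 in the vehicle libraries. The MinE07 libraries were low and did not overlap the others (non-overlap of MinE07 with C36 held for 50.0% of all genes tested, 23.0% higher and 27.1% lower). SLC2A1, the more abundant glucose transporter, was at 32.4, 35.5 and 37.5 FPKM with MinE07 against 45.9, 49.3 and 46.2 with C36, with a log2 change of -0.42 ± 0.051 (SE). HK2, which phosphorylates glucose at the start of the pathway, was at 6.72, 6.98 and 6.71 FPKM in the MinE07 libraries, 9.35, 9.48 and 9.45 in the C36 libraries and 10.6, 10.3 and 11.2 in the vehicle libraries. All MinE07 libraries were below all C36 libraries, which in turn were below all vehicle libraries (-0.44 ± 0.038 (SE)). PFKP, a phosphofructokinase, was at 8.65, 9.0 and 9.13 FPKM with MinE07 against 13.4, 13.6 and 12.9 with C36, ALDOA, an aldolase, at 284, 279.7 and 309 FPKM with MinE07 against 425, 426 and 428 with C36, and PGK1, a phosphoglycerate kinase, at 23.7, 23.4 and 25.1 FPKM with MinE07 against 37.8, 36.6 and 38.1 with C36. Each of these 3 enzymes was lower in every MinE07 library than in any C36 library. LDHA, which turns pyruvate into lactate, was at 75.5, 74.2 and 75.1 FPKM in the MinE07 libraries, 141, 138 and 149.8 in the C36 libraries and 175, 153 and 169 in the vehicle libraries. It was lowest with MinE07 and highest with vehicle, with a log2 change of -0.92 ± 0.050 (SE). The files list LDHA under more than 1 entry, so reads may be split between copies. PKM (-0.53), PGAM1 (-0.49), GAPDH (-0.39), ENO1 (-0.38) and TPI1 (-0.34), other enzymes of the pathway, fell too. The 4 members that did not pass the test were PFKM (-0.090), PFKL (-0.047), PFKFB2 (-0.029) and LDHB (-0.018). The names in the last 2 sentences were taken after their values were seen. PFKL passed the test without the third MinE07 library (-0.09).

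Of 16 tested hypoxia-inducible genes, 13 fell and 0 rose (12 fell without the first MinE07 library), with a median of -0.49 (-0.52 to -0.45 over the MinE07 libraries). VEGFA, which stimulates blood vessel growth, was at 32.7, 35.2 and 34.4 FPKM in the MinE07 libraries, 58.0, 58.7 and 56.7 in the C36 libraries and 52.1, 49.1 and 57.0 in the vehicle libraries. The MinE07 libraries were low and the other groups overlapped, with a log2 change of -0.75 ± 0.051 (SE). EGLN3, a prolyl hydroxylase that marks the hypoxia-inducible factors for destruction and is itself induced by them, was at 2.34, 2.31 and 2.82 FPKM in the MinE07 libraries, 5.26, 5.01 and 5.42 in the C36 libraries and 5.85, 5.52 and 5.96 in the vehicle libraries (-0.94 ± 0.065 (SE)). ANKRD37, a small ankyrin repeat protein, was at 1.51, 1.79 and 1.73 FPKM with MinE07 against 2.94, 3.97 and 3.35 with C36 (-0.84 ± 0.10 (SE)). ADM, the peptide hormone adrenomedullin, changed by -0.64 ± 0.063 (SE) and NDRG1 by -0.58 ± 0.034 (SE). Both lay lower in every MinE07 library than in any C36 library. CA9, the best known marker of hypoxia, was under the level filter, at 0.0143, 0 and 0.0375 FPKM with MinE07 and 0.0334, 0.111 and 0.134 with C36, as were CA12 and LOX. PDK1, which holds pyruvate back from the mitochondria, fell by 0.57 on the log2 scale to 2.20, 2.36 and 2.17 FPKM. The members not called were INSIG2 (-0.11), P4HA2 (-0.027) and MXI1 (0.11). Against vehicle the median changes of the glycolysis and hypoxia lists were -0.44 and -0.63 for MinE07 and -0.071 and -0.12 for C36, which share the vehicle libraries.

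**Figure D2:**
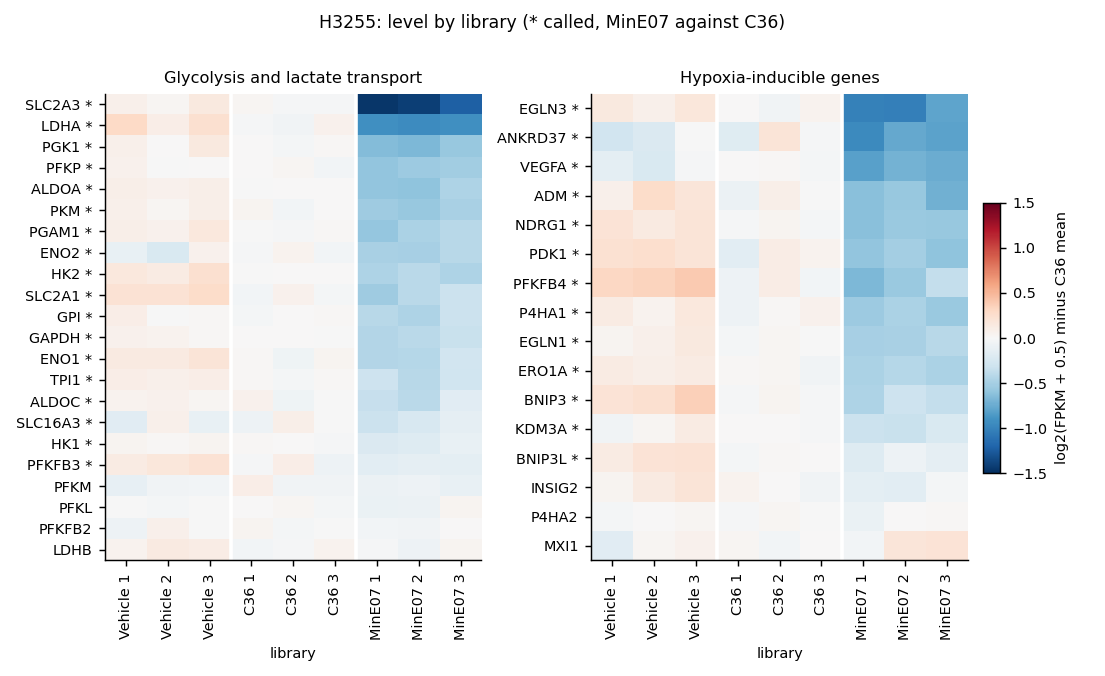
Level of each tested member of the glycolysis (left) and hypoxia (right) lists in the 9 H3255 libraries, as log2(FPKM + 0.5) minus the mean of the C36 libraries (colour); an asterisk marks genes called between MinE07 and C36. The MinE07 columns are blue for nearly all genes, from -1.37 on average for SLC2A3 to near 0 for LDHB, and only MXI1 (0.11, not called) leans the other way.

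The promoters of LDHA and ANKRD37, which both fell, are shown as examples rich in matches and not as typical ones. As seen after the search, both hold repeated matches to ACGTG, the core of the element that hypoxia-inducible factors bind. Other members that fell, such as EGLN3, ADM, PDK1 and SLC2A1, held no match. Promoters of F3 and CXCL8, among the largest falls, are shown for TGANTCA, the element that AP-1 factors bind. Each sequence is the 250 bases before the start site, 5′ to 3′, from RefSeq (GRCh38.p14), with matches on either strand in capitals. LDHA lies at chr11:18394313-18394562, plus strand, ANKRD37 at chr4:185396591-185396840, plus strand, F3 at chr1:94541760-94542009, minus strand and CXCL8 at chr4:73740319-73740568, plus strand.
LDHA: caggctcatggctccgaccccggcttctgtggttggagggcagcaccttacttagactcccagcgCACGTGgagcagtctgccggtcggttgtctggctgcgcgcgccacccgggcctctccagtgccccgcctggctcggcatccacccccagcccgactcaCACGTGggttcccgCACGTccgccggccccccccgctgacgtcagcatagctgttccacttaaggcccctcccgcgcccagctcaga
ANKRD37: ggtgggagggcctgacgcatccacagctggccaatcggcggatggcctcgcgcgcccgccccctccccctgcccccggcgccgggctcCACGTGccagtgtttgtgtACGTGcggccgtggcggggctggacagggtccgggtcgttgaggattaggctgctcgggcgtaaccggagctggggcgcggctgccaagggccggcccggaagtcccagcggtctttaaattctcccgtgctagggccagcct
F3: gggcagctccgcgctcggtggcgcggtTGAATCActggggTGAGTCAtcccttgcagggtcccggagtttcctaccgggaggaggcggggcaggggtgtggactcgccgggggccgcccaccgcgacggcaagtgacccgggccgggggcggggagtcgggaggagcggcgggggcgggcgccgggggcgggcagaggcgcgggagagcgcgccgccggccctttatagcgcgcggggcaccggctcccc
CXCL8: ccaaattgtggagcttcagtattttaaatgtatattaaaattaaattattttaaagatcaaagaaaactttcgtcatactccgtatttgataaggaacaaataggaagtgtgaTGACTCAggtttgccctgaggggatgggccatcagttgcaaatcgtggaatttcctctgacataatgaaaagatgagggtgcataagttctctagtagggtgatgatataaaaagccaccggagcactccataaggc
LDHA held 5 matches and ANKRD37 3, of which 4 and 2 lie in CACGTG, the palindrome that MYC and other E-box factors also bind. CACGTG reads the same on both strands, so each was counted as 2 adjacent matches. The capitals therefore show fewer separate stretches than matches for these genes. F3 held 2 matches to the AP-1 element, with first bases at -223 and -210 from the start site, and CXCL8 held 1 at -137.
Searched over 300 bases (250 before to 50 after the start, both strands), ACGTG was present in 21.6% of 27305 RefSeq promoters and in 27.5% of the 9318 that belong to genes tested. Of the hypoxia and glycolysis members called lower, 13 of 27 promoters held it (48.1%), and of all tested members 14 of 33 (42.4%). Matches within CACGTG were included. The lists were chosen as hypoxia-inducible and glycolysis genes, which favours a high share, so these shares serve as description only. TGANTCA was present in 7.76% of all promoters and 4.31% of those of genes tested, and in 4 of 10 promoters of the 12 largest falls (CXCL8, PLAUR, TFPI2 and F3), which were chosen by their size. Over all called genes TGANTCA was in 4.48% of the promoters of those that fell and 4.58% of those that rose, close to the share of genes tested. ACGTG was in 29.8% and 24.9%. GCGTG, the core of the element that the aryl hydrocarbon receptor binds, was searched too, and was in 51.8% of the promoters of genes tested, 52.1% of those that fell and 48.7% of those that rose. Of the hypoxia and glycolysis members called lower, 13 of 27 promoters held GCGTG (48.1%). It shares CGTG with ACGTG. A match describes the letters of the window and does not show that a factor binds.

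Genes of lipid synthesis fell in part, and those of fatty acid oxidation rose in part. Of 25 tested genes of sterol synthesis and uptake, 12 fell and 3 rose (median -0.13; 10 and 3 without the first MinE07 library). IDI1, an isomerase of the pathway, was at 24.0, 23.6 and 24.8 FPKM with MinE07 against 28.3, 28.8 and 29.8 with C36 (-0.26 ± 0.039 (SE)). INSIG1 (-0.24), which holds back sterol synthesis when sterols are plentiful, and the reductase DHCR7 (-0.24) fell by similar amounts. Those that rose included TM7SF2 (0.39) and LSS (0.14), enzymes of the same pathway, of which LSS has a further entry in the files and lost the call without single libraries. Of 15 tested genes of fatty acid synthesis, 8 fell and 1 rose (median -0.14; 8 and 2 without the first MinE07 library). SCD, which makes monounsaturated fatty acids, was at 53.7, 53.7 and 53.6 FPKM with MinE07 against 67.7, 66.9 and 66.7 with C36, with a log2 change of -0.32 ± 0.026 (SE). The desaturase FADS2 was at 70.8, 77.8 and 83.8 FPKM with MinE07 against 103, 101 and 103 with C36 (-0.40 ± 0.051 (SE)), and FASN, the fatty acid synthase, at 36.7, 37.5 and 39.3 FPKM with MinE07 against 43.6, 42.1 and 43.0 with C36 (-0.18 ± 0.035 (SE)). All 3 were lower in each MinE07 library than in any C36 library. ME1 (-0.20) and FADS1 (-0.19) fell too, and the elongase ELOVL7 rose by 0.22. Of 14 tested genes of fatty acid oxidation, 7 rose and 0 fell (median 0.10). CPT1A, which admits fatty acids to the mitochondrion, was at 13.4, 13.8 and 14 FPKM in the MinE07 libraries, 10.8, 10.4 and 10.8 in the C36 libraries and 9.46, 9.57 and 9.76 in the vehicle libraries. It was highest with MinE07 and lowest with vehicle, with a log2 change of 0.35 ± 0.033 (SE). PPARA (0.30), a receptor that induces this pathway, CPT2 (0.20), DECR1 (0.18) (not without single libraries) and HADHB (0.18) rose by less. PLIN2, which coats lipid droplets, was under the filter, at 0.877, 0.898 and 1.03 FPKM with MinE07 and 1.09, 0.987 and 1.03 with C36.

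Amino acid supply genes moved in both directions. ATF4 is a transcription factor that cells raise when amino acids run short. Of 23 tested ATF4 targets, 11 rose and 4 fell (median 0.080, or 0.13 without the first MinE07 library). ASNS, the asparagine synthetase, was at 56.2, 62.5 and 59.8 FPKM in the MinE07 libraries, 39.3, 40.2 and 40.1 in the C36 libraries and 33.0, 34.5 and 33.7 in the vehicle libraries. The groups rose in the order vehicle, C36, MinE07 with no overlap, and MinE07 minus C36 was 0.57 ± 0.039 (SE). CHAC1, which breaks down glutathione, was at 10.1, 11.8 and 11.5 FPKM with MinE07 against 6.17, 6.54 and 7.52 with C36 (0.68 ± 0.071 (SE)), and DDIT4, an inhibitor of mTOR signalling, at 13.6, 16.4 and 15.2 FPKM with MinE07 against 10.6, 12 and 11.2 with C36 (0.40 ± 0.067 (SE)). The serine synthesis enzymes PHGDH (0.36) and PSAT1 (0.37), named after their values were seen, rose as well. The members that fell were ATF3, SLC7A11, TRIB3 (-0.28) and SLC38A2 (-0.17). ATF3, a transcription factor induced by stress and growth signals, was at 0.625, 0.719 and 0.755 FPKM in the MinE07 libraries, 1.99, 1.78 and 1.68 in the C36 libraries and 0.942, 1.25 and 0.889 in the vehicle libraries. Its C36 libraries were the highest and its MinE07 libraries the lowest, with C36 minus vehicle at 0.61 ± 0.093 (SE) (adjusted p = 0.0361 in limma) and MinE07 minus C36 at -0.95 ± 0.093 (SE). ATF3 passed the level filter only through its C36 libraries, which favours a fall. SLC7A11, the cystine importer, was at 2.73, 2.79 and 2.54 FPKM with MinE07 against 4.35, 3.94 and 3.97 with C36 (-0.52 ± 0.050 (SE)). Between MinE07 and vehicle, ATF3 changed by -0.34 and SLC7A11 by -0.25, both past the test. TRIB3 changed by -0.039 there, not past it, and its C36 minus vehicle, 0.25, did not pass either. Among 20 cytosolic tRNA synthetases, which charge tRNAs with amino acids, 10 rose and 5 fell (median 0.11; 10 and 4 without the first MinE07 library). AARS1 (0.23), GARS1 (0.20), SARS1 (0.23), QARS1 (0.27) and CARS1 (0.48) rose. Those that fell included VARS1 (-0.27), FARSA (-0.23), FARSB (-0.19) and HARS1 (-0.14), the last 3 named after their values were seen. CARS1 and VARS1 have further entries in the files that may share their reads. Of 19 tested genes of purine and pyrimidine synthesis, 10 fell and 2 rose (median -0.14; 9 and 1 without the first MinE07 library). NME1, a nucleoside diphosphate kinase, was at 80.1, 74.1 and 82.6 FPKM with MinE07 against 109, 107 and 110.0 with C36 (-0.46 ± 0.041 (SE)). CTPS1, which makes CTP, was at 8.28, 8.19 and 9.09 FPKM with MinE07 against 11.9, 11 and 11.6 with C36 (-0.41 ± 0.046 (SE)), and PAICS, of purine synthesis, at 31.7, 32.4 and 31.7 FPKM with MinE07 against 40.1, 39.5 and 42.7 with C36 (-0.34 ± 0.034 (SE)). These 3 did not overlap between the aptamers. IMPDH2 (-0.20), PPAT (-0.19) and CAD (-0.14) fell by less, and the isoenzymes CTPS2 (0.14) and IMPDH1 (0.18) rose. With MinE07 minus vehicle, IMPDH2 (-0.19) and PPAT (-0.16) passed the test and CAD (-0.055) did not. The calls of FARSB, CAD and CTPS2 were lost when single libraries were left out.

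Genes that build ribosomes fell by small amounts, and ribosomal proteins were near the median of all genes. Of 30 tested ribosome biogenesis genes and MYC targets, 21 fell and 0 rose, and the median was -0.18 (-0.20 to -0.15 over the MinE07 libraries). Without the first MinE07 library, 16 fell. ODC1, the rate-limiting enzyme of polyamine synthesis, was at 42.3, 43.4 and 42.5 FPKM with MinE07 against 52.9, 54.3 and 53.0 with C36 (-0.32 ± 0.029 (SE)). NOP2, an rRNA methyltransferase, changed by -0.29 ± 0.050 (SE), UTP20 by -0.28 ± 0.061 (SE) and NCL, nucleolin, by -0.18 ± 0.043 (SE). BOP1 changed by -0.26, has further entries and was not called with no filter on low levels. MYC itself was at 6.36, 7.57 and 7.32 FPKM with MinE07 against 7.83, 7.73 and 7.61 with C36, with a change of -0.12 ± 0.056 (SE) that did not pass the test (adjusted p = 0.117 in limma). The MinE07 and C36 libraries of MYC did not overlap, but its MinE07 and vehicle libraries did. Without the second MinE07 library the change of MYC passed the test (-0.17). Of 76 cytosolic ribosomal proteins, 12 rose (11 without the first MinE07 library) and 0 fell, which is 15.8% called, and the median was 0.040. Only 5 rose without the first C36 library and 7 without the third MinE07 library. RPL34 (0.22), RPL13A (0.20), RPL28 (0.20) and RPL30 (0.19) rose (RPL30 not without single libraries), while RPLP0 was at 428, 466 and 483 FPKM with MinE07 against 449, 443 and 446 with C36 (0.039 ± 0.042 (SE)) and RPS6 changed by 0.024 ± 0.038 (SE). Between MinE07 and vehicle, RPL34 changed by 0.063, RPL28 by 0.077 and RPL30 by 0.0047, none past the test. RPL13A changed by 0.19 there and passed it. The median of the ribosomal protein list against vehicle was 0.0019 for MinE07 and -0.038 for C36. Ribosomal proteins have many processed pseudogenes, whose reads the authors' counting may split.

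Most proteasome and chaperone genes and many splicing factors fell, and respiratory chain genes were close to the median of all genes. The proteasome degrades tagged proteins. Of its 32 tested subunits and activators, 23 fell and 0 rose (21 without the first MinE07 library), with a median of -0.18 (-0.21 to -0.11 over the MinE07 libraries). PSMB5, a catalytic subunit, was at 107, 100.5 and 113 FPKM with MinE07 against 125, 121 and 127 with C36 (-0.22 ± 0.042 (SE)). PSMD14, which removes ubiquitin, was at 27.8, 27.4 and 28.0 FPKM with MinE07 against 33.3, 33.2 and 35 with C36 (-0.28 ± 0.034 (SE)), and the lid subunit PSMD11 at 18.9, 19.7 and 19.8 FPKM with MinE07 against 23.5, 23.4 and 24.0 with C36 (-0.28 ± 0.031 (SE)). No MinE07 library reached the C36 range for these 3 subunits. PSMB2 (-0.27), PSMC4 (-0.27), which has a further entry, and PSMD1 (-0.18) fell likewise. Of 17 tested cytosolic chaperones, 10 fell and 0 rose (median -0.24). HSP90AA1, the inducible HSP90 that stabilises kinases such as mutant EGFR, was at 706, 672 and 685 FPKM in the MinE07 libraries, 799.8, 788 and 842 in the C36 libraries and 799, 861 and 844 in the vehicle libraries. Its MinE07 libraries lay below all others (-0.24 ± 0.039 (SE)). HSPA8 (-0.29), HSPH1 (-0.34), FKBP4 (-0.29) and CHORDC1 (-0.33), the last with further entries and not called with no filter on low levels, fell, while the stress-induced HSPA1A, which has a near-identical neighbour, was at 22.7, 22.1 and 22.3 FPKM with MinE07 against 21.9, 22.8 and 21.4 with C36 (0.023 ± 0.034 (SE)). Of 31 splicing factors, 15 fell and 0 rose (median -0.13; 16 without the first MinE07 library), with SRSF1 at 58.5, 57.0 and 56.5 FPKM with MinE07 against 67.7, 67.9 and 70.1 with C36 (-0.26 ± 0.029 (SE)). PTBP1 (-0.25), U2AF2 (-0.25), HNRNPA2B1 (-0.21), HNRNPA1 (-0.12) and HNRNPH1 (-0.33), which has further entries, were among them, though HNRNPA2B1 was not called with no filter on low levels. Of 56 nuclear-encoded respiratory chain genes, 1 rose and 5 fell (2 and 4 without the first MinE07 library), 10.7% called, with a median of -0.016. The falls numbered from 3 to 9 when single libraries were left out, with 9 without the third MinE07 library. The called members were UQCRC1 (-0.24), ATP5F1B (-0.16), CYC1 (-0.14), NDUFS6 (-0.14), NDUFA12 (-0.12) and COX6C (0.17), and the key subunits NDUFS1 (-0.070 ± 0.042 (SE)) and COX4I1 (-0.050 ± 0.034 (SE)) did not pass the test. Between MinE07 and vehicle, UQCRC1 (-0.26) and ATP5F1B (-0.11) passed the test, while CYC1 (-0.087) and COX6C (0.034) did not. CYC1, NDUFS6, NDUFA12, COX6C, HNRNPA1 and CRELD2 lost their calls without 1 or more single libraries. Endoplasmic reticulum folding genes moved both ways, with 4 of 21 higher and 5 lower (median 0.0031). The share called, 42.9%, was near that of all genes tested, 36.8%. HERPUD1, which helps clear misfolded proteins, was at 9.08, 9.39 and 9.44 FPKM with MinE07 against 5.92, 6.67 and 6.22 with C36 (0.53 ± 0.050 (SE)), and EDEM1, which also serves that clearance, at 11.1, 11.4 and 10.8 FPKM with MinE07 against 15.3, 14.8 and 15 with C36 (-0.42 ± 0.034 (SE)). These 2 genes moved in opposite directions. XBP1 (0.14), PDIA3 (0.17) and CRELD2 (0.085) rose and DNAJB11 (-0.28), MANF (-0.21), HYOU1 (-0.17) and CANX (-0.12) fell, the last 2 with further entries, while the main chaperone HSPA5 changed by 0.085 ± 0.039 (SE), not past the test.

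Among FOXO-linked genes that were called, most rose. Of 25 tested genes listed as FOXO-responsive or restrained by growth factors, 11 rose and 3 fell (11 and 3 without the first MinE07 library), with a median of 0.060. KLHL24, an adaptor that brings keratin to degradation, was at 3.81, 3.94 and 3.29 FPKM in the MinE07 libraries, 1.38, 1.77 and 1.39 in the C36 libraries and 1.14, 1.35 and 1.30 in the vehicle libraries. Its MinE07 libraries were all above the others (1.06 ± 0.089 (SE)). PIK3IP1, an inhibitor of PI3K, was at 3.95, 4.02 and 3.81 FPKM in the MinE07 libraries, 1.90, 1.88 and 1.81 in the C36 libraries and 1.85, 2.00 and 1.95 in the vehicle libraries, with a change of 0.91 ± 0.047 (SE). SELENOP, a secreted selenium carrier, was at 9.82, 10.7 and 10.6 FPKM with MinE07 against 5.73, 6.13 and 5.86 with C36 (0.76 ± 0.047 (SE)), and YPEL3, a growth-restraining protein, at 19.0, 20.9 and 20.6 FPKM with MinE07 against 12.9, 11.7 and 11.8 with C36 (0.71 ± 0.057 (SE)). YPEL2 rose by 1.01 from a level under 1 FPKM with C36, so it passed the level filter only through its MinE07 libraries, which favours a rise. IRS2, an adaptor of the insulin receptor and a classical FOXO target, went the other way, at 1.21, 1.19 and 1.05 FPKM with MinE07 against 1.83, 1.69 and 1.73 with C36 (-0.45 ± 0.064 (SE)). ARRDC3 (-0.28) and CCNG2 (-0.16) also fell, and CCNG2 lost its call without single libraries.

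Lysosome genes rose in part. Of 33 tested lysosome and autophagy genes, 11 rose and 7 fell (median 0.071; 12 and 5 without the first MinE07 library). GRN, a lysosomal and secreted glycoprotein, was at 105, 107 and 112 FPKM with MinE07 against 80.5, 81.5 and 80.4 with C36 (0.42 ± 0.033 (SE)), and PSAP, which activates lipid hydrolases, at 196, 204 and 211 FPKM with MinE07 against 167, 168 and 164 with C36 (0.29 ± 0.033 (SE)). WIPI1 (0.34) and GABARAPL1 (0.34), of autophagosome formation, rose. SQSTM1, the autophagy receptor p62, was at 44.8, 45.6 and 47.0 FPKM in the MinE07 libraries, 53.0, 53.6 and 54.3 in the C36 libraries and 43.4, 44.1 and 46.6 in the vehicle libraries. Its C36 libraries were high while MinE07 and vehicle overlapped (-0.23 ± 0.034 (SE); the files list further entries), and the membrane protein LAMP1 changed by 0.12 ± 0.042 (SE), just short of the test (adjusted p = 0.0501 in limma; past it without the second C36 or the first MinE07 library). Among 24 tested NRF2 antioxidant genes, 11 fell and 5 rose (median -0.085). Without the first MinE07 library 10 fell and 6 rose (median -0.056). Against vehicle the median of this list was -0.017 for MinE07 and 0.050 for C36. GCLM, of glutathione synthesis, was at 6.65, 6.47 and 6.12 FPKM with MinE07 against 8.48, 8.68 and 8.54 with C36 (-0.39 ± 0.054 (SE)), TXN, thioredoxin, changed by -0.33 ± 0.058 (SE), and NQO1 (-0.22), PIR (-0.33) and SRXN1 (-0.29) fell. SRXN1 was higher with C36 than with vehicle (0.21, adjusted p = 0.0431 in limma), and its change between MinE07 and vehicle, -0.078, did not pass the test (adjusted p = 0.103 in limma). For NQO1 the MinE07 libraries (135, 135 and 137 FPKM) lay below those of C36 (159, 154 and 161) and of vehicle (138, 151 and 143). The change of NQO1 between MinE07 and vehicle, -0.086, did not pass the test (adjusted p = 0.0894 in limma). The 5 that rose were GPX2 (0.26), GCLC (0.22), AKR1C1 (0.19), EPHX1 (0.13) and CBR1 (0.11), so the subunits of glutamate-cysteine ligase, GCLC and GCLM, moved in opposite directions.

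Glutathione, retinoid and xenobiotic enzymes formed the list with the highest median. Of 23 tested members, 16 rose and 1 fell (17 and 1 without the first MinE07 library), and the median was 0.31 (0.26 to 0.35 over the MinE07 libraries). ALDH1A1, which makes retinoic acid, was at 2.95, 3.10 and 3.16 FPKM in the MinE07 libraries, 1.05, 1.07 and 1.14 in the C36 libraries and 0.995, 1.20 and 1.02 in the vehicle libraries, with a change of 1.17 ± 0.063 (SE). CYP1A1, a cytochrome P450 that oxidises polycyclic hydrocarbons and is the classical target of the aryl hydrocarbon receptor, was at 59.2, 61.7 and 59.1 FPKM in the MinE07 libraries, 29.5, 28.3 and 29.7 in the C36 libraries and 26.9, 25.9 and 26.5 in the vehicle libraries. Neither gene overlapped between MinE07 and the other groups, and CYP1A1 changed by 1.03 ± 0.033 (SE). CYP1B1, another target of that receptor, was at 20.9, 21.3 and 20.1 FPKM with MinE07 against 17.5, 17.4 and 17.8 with C36 (0.23 ± 0.033 (SE)). The retinoid-responsive PLAAT4 changed by 0.86 ± 0.13 (SE) and CYP4B1, a lung cytochrome, by 0.70 ± 0.083 (SE). Glutathione transferases rose too, among them GSTA4 (0.60), GSTM4 (0.48) and GSTP1 (0.29), the last not called with no filter on low levels. The only member that fell, TIPARP (-0.15), is a feedback repressor of the aryl hydrocarbon receptor. These 4 were named after their values were seen.

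Lung lineage genes were the second highest list. Of 21 tested alveolar type II and lung lineage genes, 13 rose and 4 fell (14 and 3 without the first MinE07 library), with a median of 0.29 (0.23 to 0.31 over the MinE07 libraries). NKX2-1, the transcription factor that defines lung epithelium, was at 87.4, 90.6 and 86.0 FPKM in the MinE07 libraries, 66.2, 71.4 and 69.7 in the C36 libraries and 71.1, 73.7 and 75.4 in the vehicle libraries. The lowest MinE07 library was above every other library (0.35 ± 0.038 (SE)). ABCA3, which loads surfactant lipid into lamellar bodies, was at 4.44, 4.74 and 4.68 FPKM in the MinE07 libraries, 2.77, 2.84 and 2.80 in the C36 libraries and 2.66, 2.84 and 2.64 in the vehicle libraries. It was separate from both other groups, with a change of 0.63 ± 0.045 (SE). SFTPD, a surfactant protein, was at 9.11, 9.64 and 10.00 FPKM with MinE07 against 6.37, 7.16 and 6.67 with C36 (0.48 ± 0.054 (SE)), and CEBPA, a transcription factor of type II cells, at 15.4, 15.3 and 16.1 FPKM with MinE07 against 10.2, 11.7 and 11.4 with C36 (0.47 ± 0.054 (SE)). SFTPB, the surfactant protein without which lamellar bodies fail, was at 3.17, 3.33 and 3.40 FPKM with MinE07 against 3.34, 3.55 and 3.65 with C36, a change of -0.079 ± 0.052 (SE) that did not pass the test. SFTPC was under the filter. CAV1, the largest rise of the list, is a marker of type I cells and was at 2.42, 2.62 and 2.82 FPKM with MinE07 against 1.32, 1.51 and 1.14 with C36 (0.78 ± 0.076 (SE)). The 4 that fell were FOXA2 (-0.34), CEBPD (-0.28), ROS1 (-0.25) and HOPX (-0.16), of which HOPX too marks type I cells. They were named after their values were seen, and HOPX lost its call without single libraries.

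**Figure D3:**
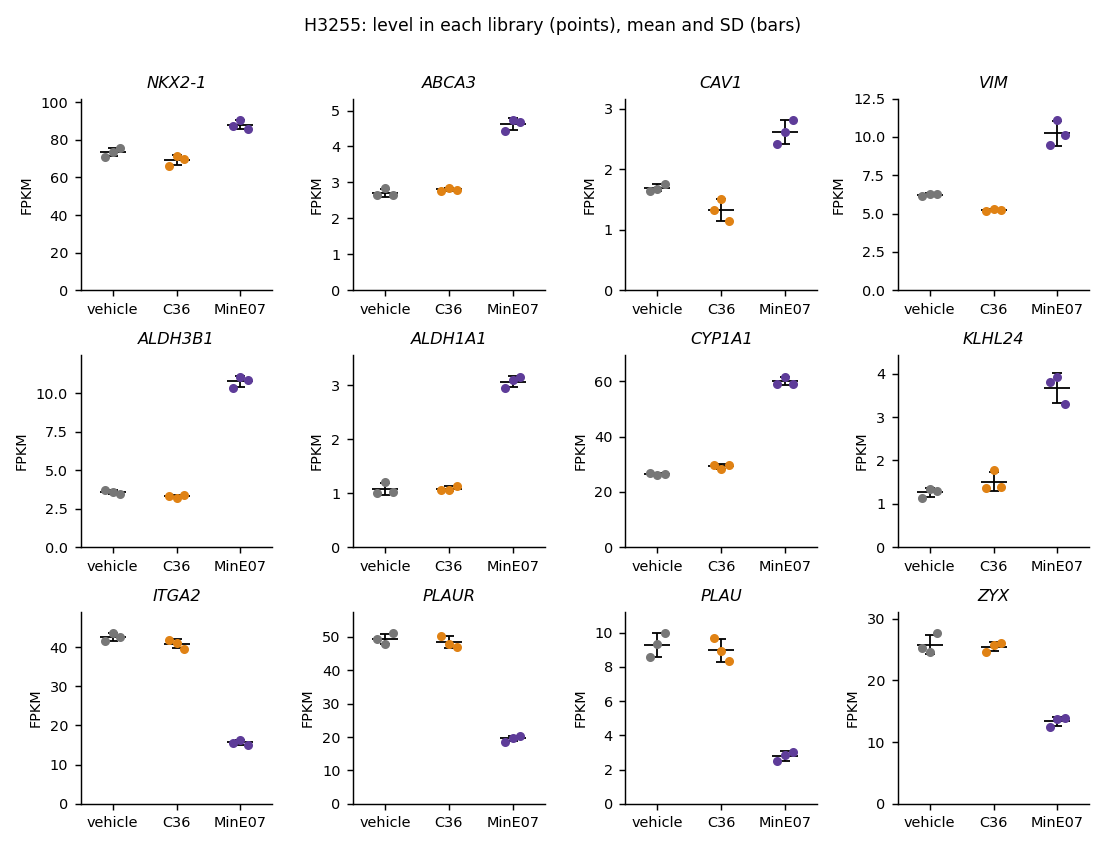
FPKM (y axis, from 0) of 12 genes in each H3255 library (points) with group mean and SD (bars), for vehicle (grey), C36 (orange) and MinE07 (purple). In the upper 2 rows (lung lineage genes, CAV1, VIM, enzymes and KLHL24) all MinE07 points lie above the other groups, and in the lowest row (ITGA2, PLAUR, PLAU, ZYX) all lie below.

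Secretory, keratin and transport genes were mixed. Of 9 tested mucin and airway secretory genes, 5 rose and 1 fell (median 0.23), and 31 had been listed, most of them under the filter. MUC1, a mucin of the cell surface, was at 179.7, 185 and 194 FPKM with MinE07 against 159.9, 161 and 155 with C36 (0.23 ± 0.036 (SE)), AGR2, which folds mucins, at 336, 332 and 345 FPKM with MinE07 against 247, 245 and 255 with C36 (0.44 ± 0.031 (SE)), and CEACAM6, an adhesion glycoprotein, at 2837, 3002 and 2976 FPKM with MinE07 against 2107, 2088 and 2124 with C36 (0.48 ± 0.031 (SE)). For all 3, each MinE07 library was above each C36 library. MUC15 (0.44) and CEACAM5 (0.36) rose, MUC5B, a gel-forming mucin, fell by 0.41 on the log2 scale, and WFDC2 changed by 0.16 ± 0.13 (SE) with overlapping libraries. Of 7 tested keratins only KRT4 rose and 4 fell, which were KRT18 (-0.38), KRT80 (-0.32), KRT15 (-0.23) and KRT8 (-0.13). KRT18 and KRT8, the paired keratins of simple epithelium, were at 318, 332 and 338 and 630.0, 651 and 674 FPKM with MinE07 and 427, 441 and 417 and 705, 714 and 714 with C36. KRT7 changed by 0.049 ± 0.029 (SE), not past the test. Of 16 tested genes of squamous differentiation, 3 rose and 3 fell (median -0.062; 2 and 3 without the first MinE07 library). S100A9, a calcium-binding alarmin, was at 424, 481 and 523 FPKM in the MinE07 libraries, 929, 852 and 917 in the C36 libraries and 884, 883 and 902 in the vehicle libraries. It was far lower in each MinE07 library (-0.92 ± 0.066 (SE)). SCEL (-0.75) and S100A14 (-0.12) fell, and SERPINB1 (0.45), IVL (0.19) and JUP (0.12) rose, IVL and JUP not without single libraries. Without the third MinE07 library 5 members fell. SPRR1B was under the filter, with 0.0434 FPKM as its highest MinE07 value. Of 17 tested ion and water transport genes, 8 fell and 4 rose (median -0.14). The sodium channel ENaC moved apart by subunit, since SCNN1B rose (2.96, 3.29 and 3.16 FPKM with MinE07 against 1.18, 1.47 and 1.30 with C36, a change of 1.00 ± 0.090 (SE)) and SCNN1A fell (26.1, 27.3 and 27.0 FPKM with MinE07 against 30.8, 31.3 and 31.5 with C36, a change of -0.22 ± 0.030 (SE)). AQP3, a water and glycerol channel, was at 163, 169.9 and 179 FPKM with MinE07 against 249, 242 and 269 with C36 (-0.57 ± 0.046 (SE)), and KCNN4, a potassium channel, at 54.0, 52.3 and 57.3 FPKM with MinE07 against 77.6, 78.8 and 79.6 with C36 (-0.53 ± 0.036 (SE)). The kinase SGK1, which raises ENaC activity, fell by 0.37, and NEDD4L, which removes ENaC from the membrane, rose by 0.25.

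Many genes by which cells hold to their matrix and move over it fell. Of 24 tested basement membrane, matrix and integrin genes, 11 fell and 3 rose (11 and 3 without the first MinE07 library), with a median of -0.099. ITGA2, the integrin chain that binds collagen, was at 15.6, 16.3 and 15 FPKM in the MinE07 libraries, 41.8, 41.0 and 39.6 in the C36 libraries and 41.6, 43.5 and 42.5 in the vehicle libraries. Its highest MinE07 library was well under the lowest of the other 6 (-1.36 ± 0.037 (SE)). ITGB6, which activates TGF-beta, was at 10.1, 10.7 and 10.7 FPKM with MinE07 against 15.6, 15.6 and 16.1 with C36 (-0.57 ± 0.040 (SE)), and ITGA3, a laminin receptor chain, at 73.1, 76.2 and 76.7 FPKM with MinE07 against 102, 106 and 105 with C36 (-0.46 ± 0.031 (SE)). The hemidesmosome integrin ITGB4 changed by -0.25 ± 0.040 (SE). The 3 that rose, LAMB2 (0.36), HSPG2 (0.34) and AGRN (0.24), encode a laminin chain and heparan sulphate proteoglycans of basement membrane. Of 31 tested actin and motility genes, 17 fell and 5 rose (17 and 6 without the first MinE07 library), with a median of -0.13. ZYX, zyxin of focal adhesions, was at 12.5, 13.7 and 13.9 FPKM in the MinE07 libraries, 24.7, 25.7 and 26.0 in the C36 libraries and 25.2, 24.6 and 27.6 in the vehicle libraries. It was low in all MinE07 libraries (-0.91 ± 0.051 (SE)), and the files list a further entry. ACTN1, which bundles actin, was at 43.2, 45.8 and 44.5 FPKM with MinE07 against 62.3, 63.1 and 63.6 with C36 (-0.50 ± 0.031 (SE)), FLNA, filamin A, at 28.3, 30.6 and 29.8 FPKM with MinE07 against 41.5, 42.5 and 40.4 with C36 (-0.48 ± 0.036 (SE)), and FSCN1, fascin of filopodia, at 10.9, 12 and 12.4 FPKM with MinE07 against 15.7, 16.7 and 15.5 with C36 (-0.43 ± 0.048 (SE)). The MinE07 and C36 libraries did not overlap for any of them. ACTB, an abundant actin often used as a reference gene, was at 2211, 2217 and 2240.2 FPKM in the MinE07 libraries, 2658, 2681 and 2562 in the C36 libraries and 2787, 2823 and 2834 in the vehicle libraries (-0.24 ± 0.029 (SE)). TPM1 rose by 0.35, unlike TPM3 (-0.29) and TPM4 (-0.34), and ARPC1B (0.17), CAPG (0.16) and EZR (0.14) rose as well. Of these rises, ARPC1B and CAPG were lost without single libraries, with 3 rises in the list without the third C36 or the third MinE07 library.

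Extracellular proteolysis genes changed by large amounts in few members. Urokinase, its receptor and tissue-type plasminogen activator turn plasminogen into plasmin at the cell surface. Of 18 tested members, 5 fell and 3 rose (median -0.044). PLAU was at 2.47, 2.86 and 3.02 FPKM in the MinE07 libraries, 9.70, 8.91 and 8.36 in the C36 libraries and 8.56, 9.33 and 9.97 in the vehicle libraries (-1.53 ± 0.076 (SE)), PLAUR, its receptor, at 18.6, 19.7 and 20.3 FPKM in the MinE07 libraries, 50.3, 47.8 and 46.9 in the C36 libraries and 49.3, 47.9 and 51.0 in the vehicle libraries (-1.28 ± 0.042 (SE)), and PLAT, the tissue-type activator, at 17.1, 19.3 and 19.9 FPKM in the MinE07 libraries, 33.3, 33.7 and 37.0 in the C36 libraries and 37.5, 39.5 and 41.7 in the vehicle libraries (-0.87 ± 0.062 (SE)). In all 3 the MinE07 libraries were low and the C36 and vehicle libraries were near each other. ADAM8 (-0.45) and ADAM17 (-0.11) also fell. TMPRSS2, a membrane serine protease, was at 9.31, 9.52 and 9.72 FPKM with MinE07 against 4.90, 4.54 and 4.32 with C36 (0.98 ± 0.044 (SE)), HPN, hepsin, a protease of the same family, changed by 0.47 ± 0.044 (SE), and MMP11 (0.33) has further entries. MMP7 was under the filter, as were MMP1 and MMP9. Of 18 tested YAP and TEAD-responsive genes, 5 fell and 4 rose (median -0.028; 5 and 5 without the first MinE07 library). CCN2 was at 22.7, 28.6 and 23.8 FPKM with MinE07 against 32.2, 37.9 and 33.9 with C36 (-0.46 ± 0.099 (SE)), CCN1 changed by -0.19 ± 0.051 (SE), and F3, tissue factor, which starts coagulation, was at 13.8, 14.4 and 14 FPKM with MinE07 against 28.4, 28.6 and 26.9 with C36 (-0.97 ± 0.046 (SE)). AMOTL2, a YAP target that feeds back on YAP, rose by 0.21, as did AJUBA (0.41), ARHGEF17 (0.41) and PTPN14 (0.16), and the YAP paralogue WWTR1 (-0.21) fell. The calls of ADAM17, CCN1 and PTPN14 were lost without single libraries.

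Epithelial genes moved both ways by small amounts, and VIM rose. CDH1, E-cadherin, was at 122, 128 and 124 FPKM in the MinE07 libraries, 125, 128 and 119 in the C36 libraries and 126, 128 and 127 in the vehicle libraries, and EPCAM changed by -0.054 ± 0.031 (SE). Neither passed the test, and the CDH1 libraries overlapped (0.0080 ± 0.034 (SE)). Of 29 tested epithelial adhesion and junction genes, 11 rose and 4 fell (median 0.063; 10 and 4 without the first MinE07 library). TJP3 (0.42), OVOL2 (0.39) and GRHL1 (0.35) rose, and the 4 that fell were OVOL1 (-0.51), CLDN1 (-0.27), CLDN12 (-0.23) and CLDN7 (-0.19), which has further entries. VIM, vimentin, an intermediate filament of mesenchymal cells, was at 9.51, 11.1 and 10.1 FPKM in the MinE07 libraries, 5.16, 5.30 and 5.2 in the C36 libraries and 6.15, 6.29 and 6.29 in the vehicle libraries, with a change of 0.91 ± 0.050 (SE). The MinE07 libraries were the highest and C36 the lowest. S100A4 (0.18) was the other of 2 rises among 7 tested mesenchymal genes, and lost its call without single libraries, the first MinE07 library among them. ZEB1 and CDH2 were under the filter, and FN1 was at 22.9, 24.4 and 22.5 FPKM with MinE07 against 24.1, 25.1 and 23.2 with C36 (-0.054 ± 0.039 (SE)). The fibroblast markers COL1A1, COL3A1, DCN and PDGFRB summed to 2.58 to 3.02 FPKM with MinE07 and 2.80 to 3.23 with C36.

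Several inflammatory genes fell, and most others were under the level filter or not called. Of 38 listed cytokines and NF-kB targets, 19 were tested, 8 of these fell and 0 rose (median -0.093). Without the first MinE07 library 8 fell and 1 rose. PTGS2, the inducible cyclooxygenase, was at 152, 167 and 159 FPKM in the MinE07 libraries, 266, 268 and 265 in the C36 libraries and 251, 262 and 273 in the vehicle libraries. The MinE07 libraries lay apart at the lower level (-0.74 ± 0.041 (SE)). IL6 was at 0.985, 1.18 and 1.55 FPKM in the MinE07 libraries, 2.60, 2.56 and 3.17 in the C36 libraries and 1.62, 1.62 and 1.91 in the vehicle libraries. Its C36 libraries were the highest and the MinE07 libraries overlapped none of the others, with MinE07 minus C36 -0.92 ± 0.12 (SE) and C36 minus vehicle 0.56 ± 0.12 (SE) (adjusted p = 0.0776 in limma). LIF, a cytokine of the IL6 family, was at 0.559, 0.570 and 0.644 FPKM with MinE07 against 1.45, 1.74 and 1.41 with C36 (-0.90 ± 0.080 (SE)). LIF passed the level filter only through its C36 libraries, which favours a fall. CXCL2 (-0.60), BCL3 (-0.60), ICAM1 (-0.48) and CX3CL1 (-0.33) fell too. NFKBIA, the inhibitor that NF-kB induces at once, was at 27.7, 26.1 and 26.7 FPKM with MinE07 against 28.0, 27.7 and 27.0 with C36 (-0.038 ± 0.045 (SE)). Of 9 tested HLA class I presentation genes, 7 rose and 0 fell (median 0.18; 6 without the first MinE07 library), by a small amount for B2M (0.18) and most for PSMB10, an immunoproteasome subunit (3.28, 3.76 and 4.03 FPKM with MinE07 against 2.51, 2.60 and 2.32 with C36, a change of 0.49 ± 0.086 (SE)). Of these 9 genes, 6 have further entries in the files, B2M and TAPBP (0.23) among them, so their values are uncertain. The count of rises was 3 without the second MinE07 library and 4 without the first C36 or the third MinE07 library, and B2M and ERAP2 were among the calls lost. ERAP1 (0.22) and ERAP2 (0.23), which trim peptides, have none. Class II genes were mostly under the filter, CD74 and CIITA included, while IFI30, a lysosomal thiol reductase, rose by 0.42 and HLA-DQB1, with further entries, fell by 0.21. Among 15 tested immune ligands and checkpoint proteins, 5 rose and 4 fell (5 and 3 without the first MinE07 library). CD274, which encodes PD-L1, was under the filter, at 0.396, 0.520 and 0.256 FPKM with MinE07 and 0.770, 0.667 and 0.585 with C36. VTCN1, an inhibitory ligand of T cells, was at 4.29, 4.30 and 3.99 FPKM with MinE07 against 2.33, 2.16 and 2.18 with C36 (0.78 ± 0.056 (SE)), ULBP1, a ligand of the NKG2D receptor, at 1.84, 2.46 and 2.40 FPKM with MinE07 against 1.28, 1.31 and 1.07 with C36 (0.67 ± 0.093 (SE)), and CD47, the signal that restrains phagocytosis, at 47.7, 47.2 and 48.7 FPKM with MinE07 against 37.7, 39.9 and 39.9 with C36 (0.29 ± 0.032 (SE)). Each was higher in every MinE07 library. LGALS3 (0.31) and CD55 (0.18) rose by less, and PVR (-0.35), CD46 (-0.20), NT5E (-0.12) and NECTIN2 (-0.087) fell, with NT5E and NECTIN2 lost without single libraries (2 falls without the third C36 library).

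Other receptors and signalling genes were divided. Of 20 tested receptor tyrosine kinases outside the ERBB family, 8 fell and 2 rose (median -0.012; 8 and 3 without the first MinE07 library). EPHA2 was at 41.5, 44.3 and 45.6 FPKM in the MinE07 libraries, 71.3, 68.0 and 69.2 in the C36 libraries and 61.6, 64.0 and 64.7 in the vehicle libraries (-0.66 ± 0.039 (SE)), with no overlap and the highest values with C36. MET, the receptor of hepatocyte growth factor, was at 36.1, 37.1 and 35.4 FPKM with MinE07 against 45.7, 44.1 and 43.5 with C36 (-0.29 ± 0.031 (SE)), and EPHA4 (-0.44) and MST1R (-0.36) fell, while IGF1R changed by 0.0027 ± 0.053 (SE). The rises were FGFR2, at 7.40, 7.32 and 6.87 FPKM with MinE07 against 5.52, 5.30 and 5.48 with C36 (0.38 ± 0.057 (SE)), and EPHB2 (0.17). Of 22 tested Notch, Wnt and TGF-beta genes, 6 rose and 7 fell (median -0.0091; 5 and 6 without the first MinE07 library). TGFBR2 was at 14.6, 15.6 and 15.8 FPKM with MinE07 against 21.0, 21.0 and 21.4 with C36 (-0.45 ± 0.035 (SE)) and HES1, a Notch target, at 30.8, 31.7 and 30.9 FPKM with MinE07 against 36.9, 39.0 and 37.8 with C36 (-0.28 ± 0.030 (SE)). The inhibitors of basic helix-loop-helix factors moved apart, as ID2 (0.53) and ID4 (0.52) rose, ID3 (-0.29), with further entries, fell, and ID1 changed by -0.13 ± 0.086 (SE) with overlapping libraries. Of 14 tested clock genes, 5 rose and 2 fell. BHLHE40, a repressor of clock genes that hypoxia also induces, was at 18.8, 19.2 and 19.5 FPKM in the MinE07 libraries, 34.9, 37.4 and 35.7 in the C36 libraries and 35.9, 35.1 and 35.4 in the vehicle libraries. The MinE07 libraries were low and the rest lay together (-0.89 ± 0.033 (SE)). DBP (0.63), CRY2 (0.27) and PER3 (0.19) rose, CLOCK (-0.18) fell, and PER1 (-0.057 ± 0.072 (SE)) and NR1D1 (-0.11 ± 0.065 (SE)) did not pass the test. ID3, PER3 and CLOCK lost their calls without single libraries.

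**Figure D4:**
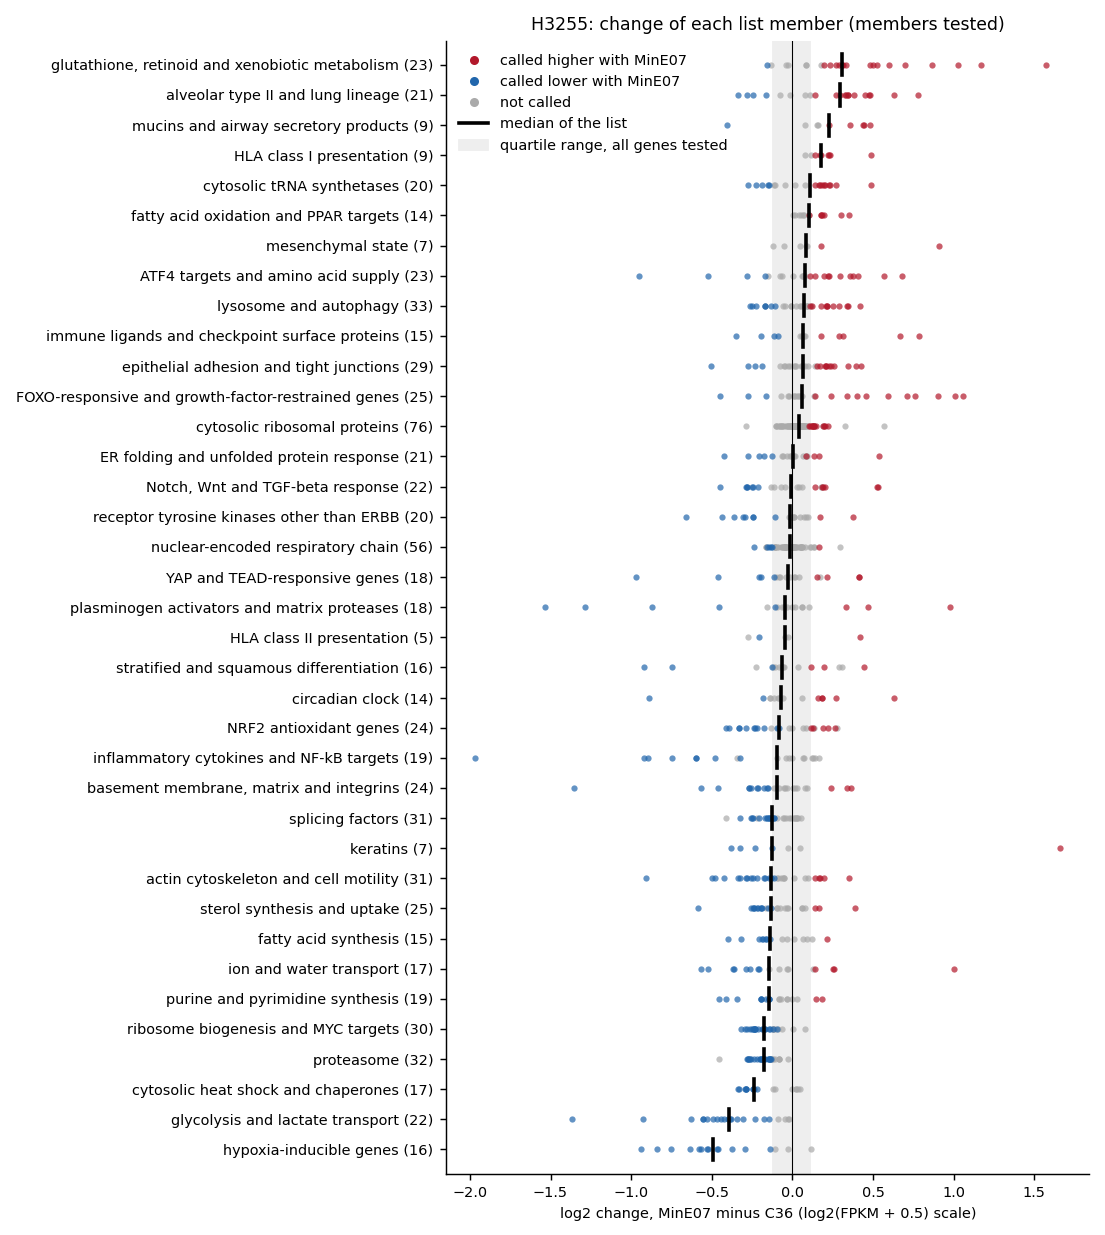
Log2 change (x axis, MinE07 minus C36) of every tested member of the 37 lists (rows, number tested in brackets), ordered by list median (black tick); red and blue points were called higher and lower, grey ones were not called, and the grey band runs from the lower to the upper quartile of all genes tested. Medians run from -0.49 for hypoxia-inducible genes to 0.31 for glutathione, retinoid and xenobiotic enzymes, and single genes such as CXCL8 and KRT4 lie far from the median of their list.

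The change in H3255 was set against the mean of the changes in H1975, H820 and A549 by an interaction term in a fit of 24 libraries. Genes were filtered by their level in H3255 only. A gene at a low level in another line can show little change there, so a term can also reflect a difference in level, which was not tested. The term passed the test for 28.6% of genes (3845 of 13433), 12.8% above 0 and 15.9% below. Of 22 tested glycolysis genes 16 were below 0 and 0 above, and of 16 hypoxia-inducible genes 13 and 0. Of 32 proteasome genes 22 were below 0, and of 31 actin genes 16. LDHA in this fit changed by -0.92 ± 0.042 (SE) in H3255, against -0.15 for H1975, -0.080 for H820 and 0.065 for A549, with a term of -0.87 ± 0.048 (SE). VEGFA changed by -0.75, -0.30, -0.12 and -0.040 in the same order, with a term of -0.60 ± 0.040 (SE). Both genes thus fell by more in H3255 than in the mean of the other lines. Of 23 xenobiotic genes the term was above 0 for 15 and below for 1, and of 21 lung lineage genes for 11 and 4. ALDH1A1 changed by 1.17, -0.037, -0.050 and 0.14 (term 1.16 ± 0.043 (SE)), and NKX2-1 by 0.35, 0.37, 0.031 and 0.051 (term 0.19 ± 0.051 (SE)). For ribosome biogenesis the term was below 0 for 9 of 30 genes, fewer than the 21 that fell in H3255. All 24 of the largest rises and falls had a term past the test, which their choice by size in H3255 favours. In the same fit 12 of the 24 were called between MinE07 and C36 in H1975, where 23.8% of all genes tested were called, 2 in H820 (0.0893% of all) and 2 in A549 (2.54% of all). SELENBP1 changed by 0.55 and ALDH3B1 by 0.47 in H1975, against 1.03 and 1.57 in H3255. SPNS2 moved in opposite directions, with 0.93 in H3255 and -0.49 in H1975.

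**Figure D5:**
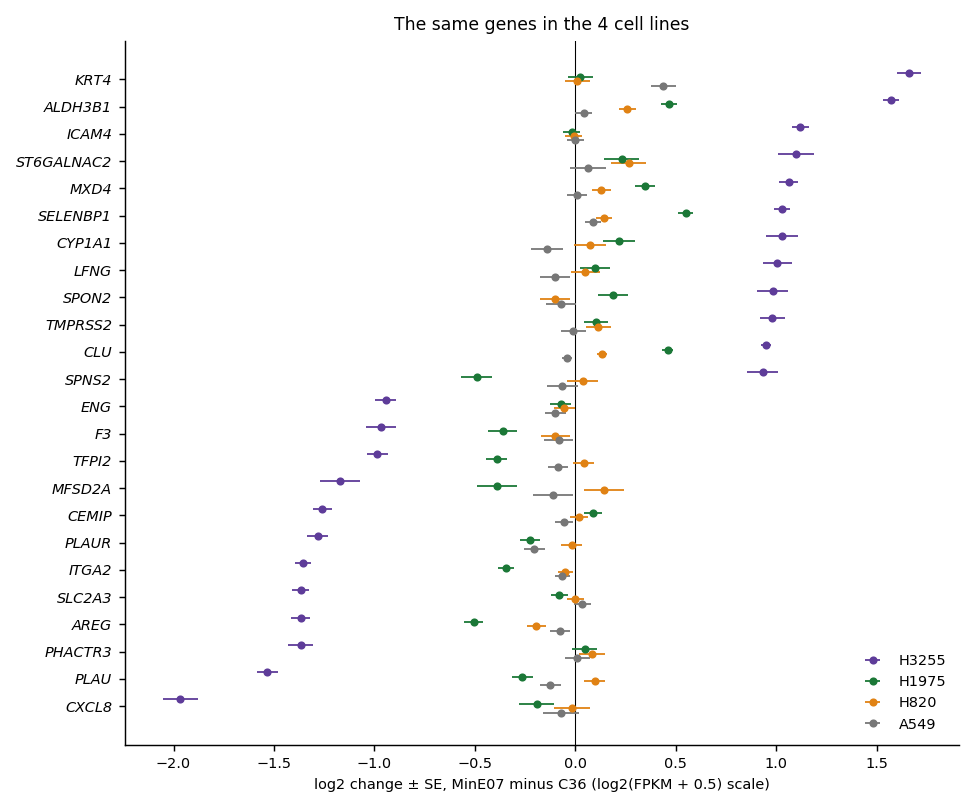
Log2 change ± SE (x axis, MinE07 minus C36) of the 12 largest rises and 12 largest falls of H3255 in H3255 (purple), H1975 (green), H820 (orange) and A549 (grey), 3 libraries per group. The H3255 points lie farthest from 0 for each of the 24 genes, and the H1975 points lie between -0.51 (AREG) and 0.55 (SELENBP1).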

How the data were processed

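Per the labels, poly-A RNA was made into stranded libraries and read on a NovaSeq as paired reads of 100 bases. The authors deposited FPKM per gene in 1 file per library. The submitters' processing notes name HISAT2, Cuffdiff, hg38 and GRCh38.p12, without versions or settings, and whether strand was used in counting is not given in the sources used here. The files hold 68271 entries per library and no counts. Entries without a name or with a repeated name held under 0.001% of summed FPKM and were left out. Further entries of a name, marked by a number (7486 entries of 4331 names), were kept as separate genes. Genes with such entries, and genes with processed pseudogenes such as GAPDH, ACTB, KRT8 and KRT18, may have their reads split. Relative depth was computed from the smallest steps between low values and closed to 0.0017 log2 between libraries. Absolute depth is unknown, so no counting interval is given, and an abundant gene can be listed at 0 in a library: 70 genes over 20 FPKM in some library were, and 0 of them were called.

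Values were analysed as log2(FPKM + 0.5) for genes with a mean of at least 1 FPKM over the 6 libraries. A gene under 1 FPKM in 1 group could pass this filter through the other group, which favours a change in that direction. A linear model with a mean for each of the 3 groups was fitted to the 9 H3255 libraries, using limma 3.58.1 under R 4.3.3 and statmod 1.5.0, an intensity trend and robust moderation, and a gene was called at a two-sided Benjamini-Hochberg adjusted p under 0.05 over all genes tested. Changes of low genes are understated on this scale. The interaction was fitted in the 24 MinE07 and C36 libraries of the 4 lines, as the H3255 change minus the mean of the other changes. Promoters and motif searches used RefSeq windows of 300 bases. Of the 13433 genes tested, 9318 matched a window by symbol.

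The genes and lists were chosen with earlier results of these data known. The 37 lists hold 1041 genes, of which 819 were tested. The genes named were EGFR, the 12 largest rises and falls (called, mean of at least 5 FPKM, no overlap, same sign against vehicle, no further entries, small RNAs or pseudogenes), and for each list 2 key members whatever their values and up to 4 further called members with the largest changes. Others are marked as named after their values were seen, or stand beside a count of at most 5 or as a list's further examples. Some genes that this rule names are not reported here. The labels do not say that equal replicate numbers share an experiment, so libraries were not paired. Deviations correlated above 0.1 in 3 of 9 same-numbered pairs. The highest correlation was between the first MinE07 and the first vehicle library (0.28), which also stood apart on the first component over all genes tested. Alternatives were another pseudocount, filter, scaling, moderation or set of libraries, entries left out, a replicate block, and each library left out in turn.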

Additional observations from a re-analysis of the deposited data

Results flagged for a closer look

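For each of the 24 largest changes in H3255, the change differed from the mean of the changes in H1975, H820 and A549 by the interaction test. The genes were chosen by their size in H3255, which favours this difference. They were filtered by level in H3255 only, and a gene at a low level in another line can show little change there. The part of such levels in these differences was not tested. H3255 minus the mean of the other lines, on the log2 scale, was 1.50 for KRT4, 1.31 for ALDH3B1, 1.13 for ICAM4, 1.11 for SPNS2, 0.99 for LFNG, 0.98 for CYP1A1, 0.98 for SPON2, 0.91 for ST6GALNAC2, 0.91 for TMPRSS2, 0.90 for MXD4, 0.77 for SELENBP1 and 0.76 for CLU. Among the falls it was -1.87 for CXCL8, -1.44 for PLAU, -1.41 for PHACTR3, -1.35 for SLC2A3, -1.27 for CEMIP, -1.20 for ITGA2, -1.13 for PLAUR, -1.11 for AREG, -1.05 for MFSD2A, -0.87 for ENG, -0.84 for TFPI2 and -0.79 for F3. A549 was treated in another medium (DMEM), whose part in these differences was not tested.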

How the results depend on the processing

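The 8 counts and shares of called genes stayed within 1.5 times of the reported value under every alternative run, other than the genes called higher at a mean of at least 5 FPKM, which numbered 1384 in H3255 and 988 above 0 for the difference between lines, where fewer genes were tested. Leaving out 1 library gave 3894 to 4909 called genes in H3255, 1787 to 2243 higher and 2079 to 2666 lower, with 41.6% to 49.9% of calls higher. For the difference between lines it gave 3287 to 3693 calls, 1438 to 1704 above 0 and 1781 to 2204 below, with 40.3% to 48.9% above 0. Rescaling by medians of ratios gave 5164 calls in H3255 and moved the share higher from 45.7% to 48.7%. With a replicate block 4805 genes were called in H3255 and 3800 for the difference between lines. Same-numbered pairs correlated between -0.19 and 0.28 and different-numbered pairs between -0.28 and 0.22, so the numbers are not read as pairs. Of 290 tested genes named in the text, 29 called ones missed the test without at least 1 library, as marked in the text for most, 28 with no filter on low levels (BOP1, CHORDC1, GSTP1 and HNRNPA2B1 only there) and 7 under the block. LAMP1, not called, passed the test under 6 other settings besides leaving out a library. The sign turned in genes near 0 that were not called: CDH1 (-0.020 to 0.028 over the left-out libraries; -0.020 without C36 library 3, -0.013 without MinE07 library 2), IGF1R (-0.039 to 0.032; -0.039 without C36 library 3, -0.013 and -0.011 without MinE07 libraries 2 and 3), LDHB (-0.047 to 0.0091; 0.0091 without C36 library 3, 0.0085 without MinE07 library 2), P4HA2 (-0.047 to 0.010; 0.010 without MinE07 library 1) and RPS6 (-0.0096 to 0.047; -0.0096 without C36 library 1). Of 37 list medians, 13 moved by more than 1 SD of the MinE07 libraries without a library and 10 under another setting. They changed sign for 3 lists that lay near 0 (Notch, Wnt and TGF-beta; respiratory chain; ER folding). With a mean of at least 5 FPKM the median was -0.020 for inflammatory genes, -0.22 for ion transport, -0.15 for matrix genes, -0.17 for receptor tyrosine kinases, -0.091 for Notch, Wnt and TGF-beta genes and -0.11 for clock genes. Without 1 library the inflammatory median ran from -0.16 (C36 library 1 left out) to -0.035 (MinE07 library 3), and the median was 0.011 for ribosomal proteins (MinE07 library 3), -0.019 for proteases (MinE07 library 2) and 0.093 for FOXO-linked genes (MinE07 library 3). List counts moved by over 1.5 times at a mean of at least 5 FPKM, where fewer genes were tested, for the rises of FOXO-linked (11 to 6), HLA class I (7 to 3), immune ligand (5 to 3), ion transport (4 to 1), YAP (4 to 2) and clock genes (5 to 1) and the falls of inflammatory genes (8 to 4). With no filter the rises of ribosomal proteins went from 12 to 5, of HLA class I genes from 7 to 4 and of actin genes from 5 to 3, and the falls of respiratory chain genes from 5 to 3, which was also their number under the block and without the intensity trend and robust moderation. The cause of these differences was not tested. With 3 libraries per group and no counts, precision at low levels cannot be set apart from counting noise.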
